A study of Mus musculus with 4 samples.

Results

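The ERBB receptor system was described here in adult mouse neural stem cells, sorted by flow cytometry and sequenced as 4 RNA-seq libraries: the receptors Egfr, Erbb2, Erbb3 and Erbb4, the ligands Tgfa, Hbegf, Egf, Areg and Btc, and the feedback inhibitor Errfi1. The members were taken by gene symbol, and no level or test entered the rule. They are 10 of 32564 genes and hold 36 of 98294 transcripts that could be matched to the annotation. The 4 libraries form 1 group: per the labels, Prom1+, EGFR+ and GFAP+ cells, called activated, were sorted without treatment from gfap:GFP transgenic mice aged 3 months on a CD1/C57BL/6 mixed background. The reporter reads the promoter of Gfap, a gene that astrocytes also use. The series' design text speaks instead of quiescent cells and of injections before isolation. The labels were followed, no treated and untreated groups were compared, and libraries were numbered 1 to 4 only as names. The labels do not tie the libraries to different animals, and the spread between them may be technical. EGFR protein was a marker of the sort, which means that the presence of Egfr RNA is part of how the cells were chosen and is no finding.

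EGFR is a receptor tyrosine kinase that pairs with itself or with another ERBB receptor when a ligand of the epidermal growth factor family binds outside the cell. ERBB2 has no known ligand and acts as a partner, ERBB3 has little kinase activity of its own, and ERBB3 and ERBB4 bind neuregulins. The ligands are made as membrane proteins and are released by proteases. In the adult forebrain niche, surface EGFR is commonly used to separate activated from quiescent stem cells.

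Egfr RNA in these libraries was carried mostly by a full-length and a truncated transcript, and the letters at their split show how they differ. Both transcripts contain exon 16, whose last base is followed in Egfr-202 by unspliced sequence with a stop codon and in Egfr-201 by exon 17. The sequences are from the GENCODE M21 transcripts on GRCm38, plus strand, and capitals mark the stop codon of Egfr-202. Exon 16 lies at chr11:16887141-16887185, the read-through stretch at chr11:16887186-16887228 and exon 17 at chr11:16889913-16890054.
Egfr exon 16: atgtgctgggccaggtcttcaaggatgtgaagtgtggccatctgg
Egfr-202: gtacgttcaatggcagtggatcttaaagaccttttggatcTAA
Egfr-201: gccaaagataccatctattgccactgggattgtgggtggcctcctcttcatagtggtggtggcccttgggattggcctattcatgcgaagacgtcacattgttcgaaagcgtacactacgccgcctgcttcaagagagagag

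The truncated transcript Egfr-202 has 655 codons in 16 exons and the full-length Egfr-201 has 1210 codons in 28 exons. They share 641 complete codons, and Egfr-202 adds 40 coding bases of its own before its stop. Outside the first 50 codons, the most hydrophobic run of 21 codons in Egfr-201 was at codons 648 to 668, past the split, with 542 codons after it. A soluble receptor fragment without membrane anchor or kinase is a known product of such short Egfr transcripts in rodents. The protein itself was not measured.

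**Figure D1:**
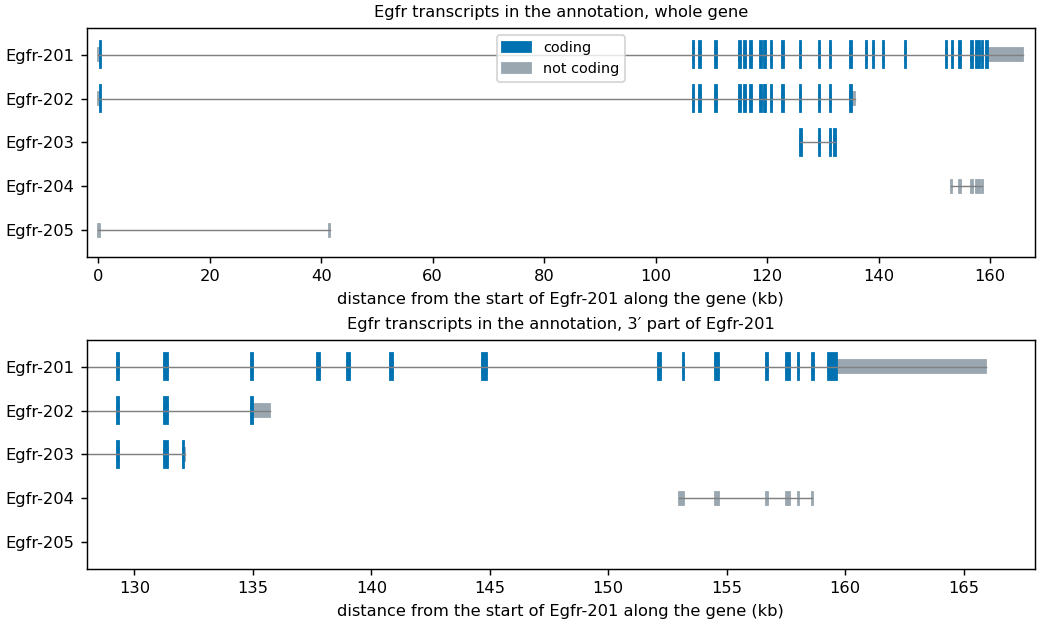
Annotated exons of the Egfr transcripts, plotted by distance in kb from the start of Egfr-201, for the whole gene (top) and for its 3′ part (bottom); tall blue blocks are coding and low grey blocks are not. Egfr-202 ends after exon 16 with unspliced sequence, Egfr-204 overlaps exons 22 to 27 of Egfr-201, and Egfr-205 joins exon 1 to an exon inside the first intron.

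Libraries held 16978938 to 23727664 estimated counts, and mitochondrial transcripts took 13.5 to 18.4% of TPM (a level per transcript length, relative within a library). All 9 neural stem cell markers and all 6 markers of activated or transit-amplifying cells were above 1 TPM. Summed levels were 2193 to 3094 and 826 to 906 TPM. Slc1a3 led the first list at 1009 TPM and Dlx2 the second at 228 TPM on average. Prom1 and Gfap are on the first list and were part of how the cells were chosen, so their presence is no finding. Markers of cell types that the sort should leave out were present too. All 8 oligodendrocyte markers were above 1 TPM, with sums of 2503 to 4297 TPM led by Mbp at 1706 TPM, and so were all 8 microglia markers with sums of 117 to 419 TPM led by Ctss at 58.4 TPM. Sums were 163 to 223 TPM for 6 markers of oligodendrocyte precursors (5 above 1 TPM), 202 to 369 TPM for 5 of neuroblasts (all above), 847 to 1041 TPM for 6 of mature neurons (5 above), 598 to 1204 TPM for 6 of ependymal cells (all above), 8.42 to 23.9 TPM for 4 of the choroid plexus (1 above) and 59.9 to 2342 TPM for 5 of erythroid cells (4 above). The 6 endothelial and mural markers summed to 23.9 to 43.3 TPM (2 above), with Cdh5 and Kcnj8 at 0 in every library. Above 1 TPM stands here for the limma call described next, which 62.8% of all 19914 genes tested had.

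Each gene's mean log2(TPM + 1) was tested against its value at 1 TPM, a level used here as a yardstick for detection, with limma and Benjamini-Hochberg adjustment over 19914 genes. Of the 10 members, 6 were above 1 TPM (Egfr, Erbb2, Tgfa, Hbegf, Egf and Errfi1), 2 were below (Areg and Btc) and 2 passed in neither direction (Erbb3 and Erbb4). Among all genes tested, 62.8% were above, 23.2% below and 13.9% in neither direction, so the members' 6 of 10 is near that background. The median difference from 1 TPM on the log2(TPM + 1) scale was 1.58 for the members and 2.15 for all genes tested. In bulk RNA, fewer cells that use a gene and less RNA per cell cannot be told apart.

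**Figure D2:**
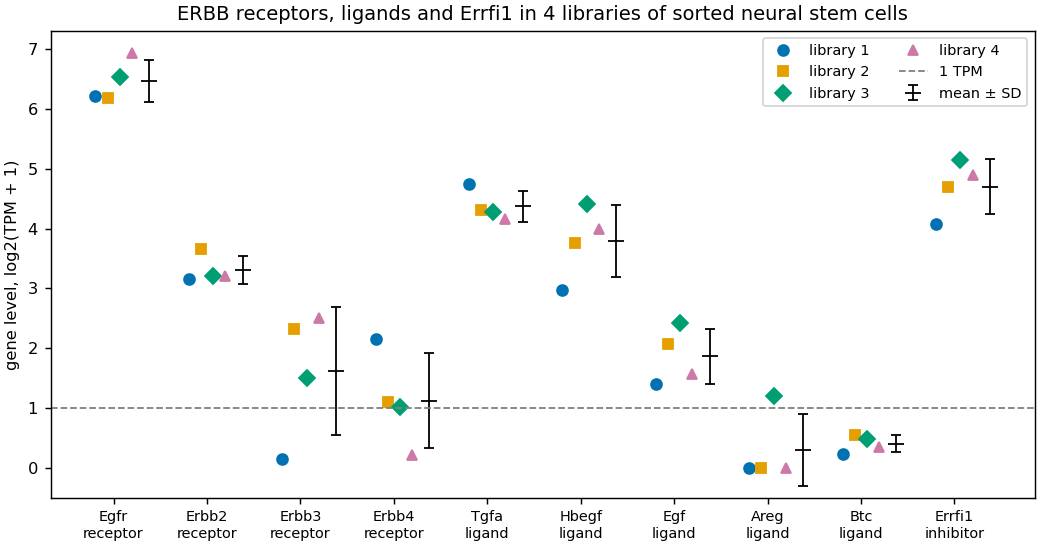
Gene level as log2(TPM + 1) for each member in each of the 4 libraries, with the mean and SD over libraries beside them; the dashed line is 1 TPM. Egfr lies at the top at 71.5 to 121 TPM, Erbb3 and Erbb4 spread most among the receptors, and Areg is off 0 in library 3 alone.

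Among the receptors, Egfr (chromosome 11, 16752203 to 16918158) had by far the highest level. Its summed TPM was 73.7, 71.5, 91.9 and 121 in libraries 1, 2, 3 and 4, from 4507 to 8317 estimated counts. Library 4 was the highest and libraries 1 and 2 were alike. The mean was 89.7 ± 23.1 TPM (SD, n = 4), which put Egfr at rank 1776 of the 19914 genes, and its difference from 1 TPM was 5.47 on the log2(TPM + 1) scale (SE 0.14, limma adjusted p = 1.5e-07). Egfr made up 86.8 ± 4.14% of the summed TPM of the 4 receptors (SD, n = 4), with a range of 81.1 to 90.3%. EGFR was a marker of the sort, so passing 1 TPM is no finding, and this share may be partly set by that choice.

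The truncated Egfr-202 had a higher TPM than the full-length Egfr-201 in 4 of 4 libraries. Egfr-202 was at 32.9, 32.9, 50.3 and 69.3 TPM in libraries 1 to 4, and Egfr-201 at 27.8, 20.9, 26.8 and 31.7 TPM. Egfr-202 thus spread over libraries more than Egfr-201 did, with means of 46.3 ± 17.4 and 26.8 ± 4.45 TPM (SD, n = 4 each). The within-library ratio of Egfr-202 over Egfr-201 was 1.18, 1.57, 1.88 and 2.19. Both transcripts were above 1 TPM in a limma fit over 68226 transcripts, of which 30.9% were above, 29.0% below and 40.1% in neither direction (adjusted p = 1.4e-05 for Egfr-202 and 3.1e-06 for Egfr-201).

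By share, Egfr-202 held 44.6, 46.0, 54.7 and 57.1% of Egfr TPM in libraries 1 to 4, and Egfr-201 held 37.8, 29.3, 29.1 and 26.1%. Library 1 was the most full-length and library 4 the most truncated. The order of the forms rests on the correction for length. In estimated counts Egfr-202 had 1428, 1333, 1536 and 3084 and Egfr-201 had 4366, 3059.8, 2958 and 5079, so the uncorrected ratio was 0.33 to 0.61, below 1 in 4 of 4 libraries. Of the 10208 bases of Egfr-201, 6306 follow the coding sequence, while Egfr-202 is 2943 bases long. Had reads of Egfr-201 covered its length to the stop codon only, its share would be 53.9%, against 30.6 ± 5.01% (SD, n = 4) as deposited; this bound was chosen after the data were seen. How reads spread along the transcripts was not tested, since the files hold no positions.

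The transcripts differ in how much sequence is theirs alone. Of runs of 31 bases, 745 are found in Egfr-202 and in no other transcript of the reference, and 7349 in Egfr-201. Reads from the shared exons are divided between the forms by kallisto's estimate. The split rests on those private stretches. For Egfr-202 the stretch is mainly the unspliced sequence after exon 16, which reads of unspliced Egfr RNA would match as well. The part of such reads in its level was not tested.

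Egfr-204 and Egfr-205 carry no annotated protein. Egfr-204 was at 4.37, 10.5, 9.71 and 13.0 TPM and Egfr-205 at 8.68, 7.18, 5.14 and 7.41 TPM in libraries 1 to 4. Library 1 was the lowest for Egfr-204 and the highest for Egfr-205. Together they took 18.8 ± 3.94% of Egfr TPM (SD, n = 4) but only 1.31% and 0.53% of its estimated counts on average, as both are short (716 and 446 bases). Egfr-203, a short transcript annotated as coding, had no count in any library.

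**Figure D3:**
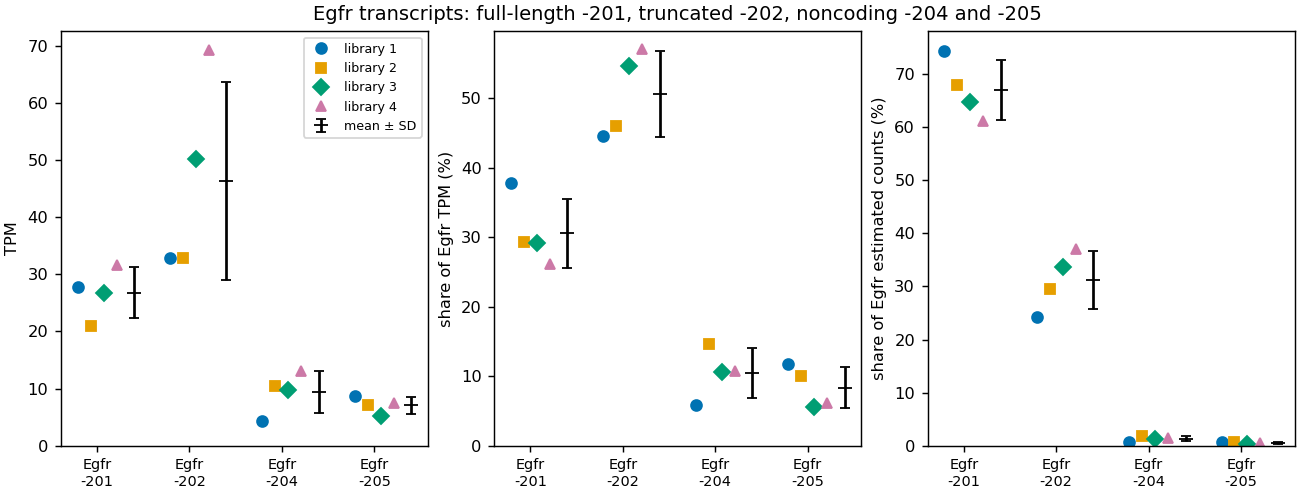
TPM (left), share of Egfr TPM (middle) and share of Egfr estimated counts (right) for each Egfr transcript with a count, 1 point per library with the mean and SD. Egfr-202 leads by TPM share at 50.6% on average and Egfr-201 leads by count share at 67.0%.

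Erbb2 (chromosome 11, 98412470 to 98437716), the partner receptor without a ligand, was at 7.92, 11.6, 8.21 and 8.22 TPM in libraries 1 to 4. Library 2 stood above the other 3, which were nearly equal. The mean was 8.98 ± 1.73 TPM (SD, n = 4), a difference from 1 TPM of 2.30 on the log2(TPM + 1) scale (SE 0.18, limma adjusted p = 3.4e-05). About as much of this RNA lay on Erbb2-202, annotated as a processed transcript without a protein, as on the coding Erbb2-201. Erbb2-202 was at 2.40, 5.53, 4.14 and 5.17 TPM and Erbb2-201 at 5.51, 6.04, 4.07 and 3.05 TPM. Library 1 had the larger level on the coding form and library 4 on the other. The coding share was 52.2 ± 13.4% of Erbb2 TPM (SD, n = 4) and ran between 37.2 and 69.7%.

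Erbb2-202 keeps the 81-base intron between exons 17 and 18 of Erbb2-201, at chr11:98433050-98433130 on the plus strand of GRCm38. The intron is shown because it puts a stop codon into the reading frame of Erbb2-201. Capitals mark that stop codon, codon 16 of the intron read in the frame of Erbb2-201.
Erbb2-202: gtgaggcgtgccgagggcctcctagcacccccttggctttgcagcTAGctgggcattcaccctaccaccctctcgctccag
Only 109 runs of 31 bases are private to Erbb2-202, against 690 for Erbb2-201, so the Erbb2-202 level rests on a short stretch. Reads of unspliced Erbb2 RNA would match the retained intron as well. The part of such reads in the Erbb2-202 level was not tested. The full-length Egfr-201 exceeded the coding Erbb2-201 by 3.47 to 10.4 times in TPM.

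Erbb3 (chromosome 10, 128567523 to 128589652), the kinase-poor neuregulin receptor, varied 42.7-fold between the lowest and the highest library. It was at 0.11, 4.01, 1.83 and 4.67 TPM in libraries 1 to 4, from 10, 341, 118 and 436 estimated counts on its 1 transcript. Library 1 was far below the other 3. The mean of 2.65 ± 2.08 TPM (SD, n = 4) did not pass against 1 TPM (difference 0.62 on the log2(TPM + 1) scale, SE 0.43, limma adjusted p = 0.22). It passed as above 1 TPM without library 1 (difference 1.11, limma adjusted p = 0.021) and with edgeR (1.41, adjusted p = 0.016). With CPM it passed as above 1 CPM (1.99, limma adjusted p = 0.029). CPM is not corrected for length, so this is another level than 1 TPM.

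Some markers of other cells moved with Erbb3. The libraries fell into the same order, 1 lowest, then 3, 2 and 4, for Erbb3, for the summed 8 oligodendrocyte markers (2503, 3597, 3256 and 4297 TPM in libraries 1 to 4) and for the summed 5 erythroid markers (59.9, 641, 449 and 2342 TPM). Of the oligodendrocyte markers 6 of 8 had that order on their own. Mbp, the highest, was at 1774, 1608, 1471 and 1969 TPM, with library 3 the lowest, and so was library 3 for Mobp, named after its values were seen. The summed markers of microglia (117 TPM against 300 to 419 TPM in the other 3), ependymal cells (598 TPM against 791 to 1204 TPM) and choroid plexus (8.42 TPM against 13.0 to 23.9 TPM) were also lowest in library 1. The oligodendrocyte precursor sum did not follow Erbb3, at 164, 163, 175 and 223 TPM in libraries 1 to 4. Of its 6 markers only Sox10, named after its values were seen, had the order of Erbb3, at 10.6, 20.2, 12.6 and 29.1 TPM. Erbb3 is known to be used by cells of the oligodendrocyte lineage. The part of any of these cells in the Erbb3 level was not tested.

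Erbb4 (chromosome 1, 68032186 to 69108059), the other neuregulin receptor, was highest where Erbb3 was lowest. It was at 3.45, 1.15, 1.03 and 0.16 TPM in libraries 1 to 4, from 254, 122, 80 and 29 estimated counts. Library 1 was the highest and library 4 the lowest, 22.0-fold apart. The mean of 1.45 ± 1.41 TPM (SD, n = 4) did not pass against 1 TPM (difference 0.12 on the log2(TPM + 1) scale, SE 0.32, limma adjusted p = 0.73). The summed markers of neuroblasts, in which Erbb4 is known to act, fell into the same order, at 369, 256, 244 and 202 TPM for the 5 of 6 that could be matched. Only 2 of the 5 had that order on their own, Cd24a, the highest, and Stmn2, named after its values were seen. The 6 mature neuron markers were highest in library 1 too, with a sum of 1041 TPM against 847 to 895 TPM in the other 3. The part of these cells in the Erbb4 level was not tested.

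The Erbb4 transcripts differ at the juxtamembrane exon and at a cytoplasmic exon, the positions known as JM-a or JM-b and CYT-1 or CYT-2. The JM-a exon is known to hold the site where ADAM17 cuts the receptor, and the CYT-1 exon a site that binds PI3-kinase. The exons are on the minus strand of GRCm38, at chr1:68043908-68043955 for the 48-base cytoplasmic exon of Erbb4-201, at chr1:68290243-68290317 for the juxtamembrane exon of Erbb4-202, which Erbb4-201 shares, and at chr1:68290439-68290483 for that of Erbb4-205.
Erbb4-201: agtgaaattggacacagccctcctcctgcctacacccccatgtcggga
Erbb4-202: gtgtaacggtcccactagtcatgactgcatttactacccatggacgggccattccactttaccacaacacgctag
Erbb4-205: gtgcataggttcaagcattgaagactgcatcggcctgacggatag

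Erbb4-202, without the 48-base exon, was at 0.94, 0.61, 0.53 and 0 TPM in libraries 1 to 4, and Erbb4-205 at 2.51, 0.54, 0.50 and 0 TPM. Erbb4-201 had practically no count in libraries 1 to 3 and took all 29 estimated counts of library 4, at 0.16 TPM. Library 4 thus had no count on the forms that held nearly all Erbb4 RNA in the other 3. Erbb4-205 is annotated as an incomplete coding sequence of 2196 bases, only 27 of its runs of 31 bases are its own, and its estimated counts were 80, 16, 11 and 0. At that depth the forms could not be ranked.

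Among the ligands, Tgfa and Hbegf together held 86.5 to 94.8% of the summed ligand TPM. Tgfa (chromosome 6, 86195223 to 86275719), transforming growth factor alpha, was at 25.8, 18.7, 18.4 and 16.9 TPM in libraries 1 to 4. Library 1 was the highest and the other 3 lay close together. The mean was 19.9 ± 3.98 TPM (SD, n = 4), a difference from 1 TPM of 3.37 on the log2(TPM + 1) scale (SE 0.14, limma adjusted p = 1.4e-06). The coding transcript Tgfa-201 held 97.1 to 99.8% of it; Gm43917, annotated on the opposite strand, shares 118 of its exon bases.

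Hbegf (chromosome 18, 36504927 to 36515805), heparin-binding EGF-like growth factor, was at 6.88, 12.5, 20.3 and 15.0 TPM in libraries 1 to 4, all on 1 coding transcript. Library 3 was the highest and library 1 the lowest. The mean was 13.7 ± 5.57 TPM (SD, n = 4), a difference from 1 TPM of 2.78 on the log2(TPM + 1) scale (SE 0.25, limma adjusted p = 7.4e-05). The ratio of Tgfa over Hbegf was 3.75, 1.50, 0.91 and 1.13 in libraries 1 to 4, so which of them led changed with the library. The ligand sum itself was 34.1 to 34.8 TPM in libraries 1, 2 and 4 and 44.7 TPM in library 3.

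Egf (chromosome 3, 129677565 to 129755316), the ligand that gave the family its name, was at 1.64, 3.20, 4.33 and 1.97 TPM in libraries 1 to 4, from 59.0 to 120 estimated counts. Library 3 was the highest. The mean of 2.78 ± 1.23 TPM (SD, n = 4) passed as above 1 TPM (difference 0.86 on the log2(TPM + 1) scale, SE 0.26, limma adjusted p = 0.019), but this rested partly on transcripts annotated as not coding. Protein-coding transcripts held 47.8 ± 19.9% of Egf TPM (SD, n = 4), at 0.82, 1.62, 0.91 and 1.36 TPM. With them alone the call was lost (difference 0.11, adjusted p = 0.51), as it was without library 2 (0.79, adjusted p = 0.066) or library 3 (0.68, adjusted p = 0.070).

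The leading Egf form by TPM changed with the library. The retained-intron form Egf-203, of 667 bases, was at 0.42, 0.86, 1.67 and 0.39 TPM and rested on 3.24 to 9.24 estimated counts. The coding Egf-202 was at 0.09, 1.46, 0.78 and 0 TPM and the coding Egf-209 at 0.55, 0.16, 0 and 1.32 TPM. Egf-203 led in library 3, Egf-202 in library 2 and Egf-209 in libraries 1 and 4, yet the coding forms have only 1 and 28 private runs of 31 bases, so their split is uncertain. Egf-204, annotated for nonsense-mediated decay, was at 0.12, 0.49, 0.48 and 0.22 TPM. The genes 6330410L21Rik and Gm42697 lie antisense to Egf and share 500 and 607 exon bases with Egf-201, but none with Egf-202, Egf-203, Egf-204 or Egf-209. Without strand, reads from such a pair cannot be told apart.

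Btc and Areg were at the low end. Btc (chromosome 5, 91357261 to 91402994), betacellulin, was at 0.17, 0.46, 0.39 and 0.27 TPM in libraries 1 to 4, from 7.10 to 19.5 estimated counts, below 1 TPM in every library. The difference from 1 TPM was −0.60 on the log2(TPM + 1) scale (SE 0.088, limma adjusted p = 8.4e-04). The coding Btc-201 held 60.3 to 100% of it. Areg (chromosome 5, 91139599 to 91148432), amphiregulin, had no count in libraries 1, 2 and 4 and 15 estimated counts, at 1.30 TPM, in library 3. A count of 0 allows a level of up to 0.18, 0.20 and 0.18 TPM in libraries 1, 2 and 4, taking 3 counts as the limit of counting error. The Areg difference of −0.70 on the log2(TPM + 1) scale (SE 0.23, limma adjusted p = 0.026) was lost without library 1, 2 or 4, with adjusted p between 0.084 and 0.092. With edgeR neither Btc nor Areg passed (adjusted p = 0.12 and 0.34).

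Errfi1 (chromosome 4, 150853919 to 150868892) encodes MIG6, which binds the active EGFR kinase and blocks it, and is itself switched on by EGFR signalling. Its mean TPM came second among the members, at 15.8, 24.8, 34.5 and 28.6 TPM in libraries 1 to 4. Library 1 was the lowest and library 3 the highest. The mean was 25.9 ± 7.84 TPM (SD, n = 4), a difference from 1 TPM of 3.70 on the log2(TPM + 1) scale (SE 0.19, limma adjusted p = 4.2e-06). Summed Egfr TPM exceeded summed Errfi1 TPM by 2.67 to 4.67 times in the 4 libraries. Both sums include transcripts other than the full-length receptor and the coding inhibitor. Full-length Egfr-201 alone was at 27.8, 20.9, 26.8 and 31.7 TPM in libraries 1 to 4. The coding Errfi1 transcripts were at 8.47, 9.04, 20.6 and 20.8 TPM.

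Errfi1 TPM was split between the coding Errfi1-201 and the short noncoding Errfi1-203 of 546 bases. Errfi1-201 was at 7.81, 8.25, 20.6 and 20.8 TPM and Errfi1-203 at 7.32, 15.7, 13.9 and 7.83 TPM. Libraries 3 and 4 had over 2 times the coding level of libraries 1 and 2. Coding transcripts held 55.6 ± 15.0% of Errfi1 TPM (SD, n = 4), while Errfi1-201 alone held 85.9% of estimated counts on average. Both forms start with the same exon. Only 29 runs of 31 bases are private to Errfi1-201, which shares most of its sequence with the coding Errfi1-202 (0.66, 0.79, 0 and 0 TPM).

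In the order of mean levels (Egfr, Errfi1, Tgfa, Hbegf, Erbb2, Egf, Erbb3, Erbb4, Areg, Btc), 2 of 9 neighbouring pairs lay apart in all 4 libraries by more than the spread of their ratio. Egfr over Errfi1 had a mean log2 ratio of TPM + 1 of 1.77 ± 0.39 (SD, n = 4) and Erbb2 over Egf 1.44 ± 0.44 (SD, n = 4), each with p = 0.125 in an exact two-sided sign-flip permutation test, the smallest that 4 libraries allow. The other 7 pairs did not differ beyond their spread. Errfi1 over Tgfa was among them: its mean log2 ratio was 0.33 ± 0.70 (SD, n = 4), with Tgfa higher in library 1, and it turned to −0.49 with protein-coding transcripts only and to −0.94 with CPM.

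The genes whose pattern over the 4 libraries was most like that of Egfr were found by the root mean square difference of centred log2(TPM + 1) among 6905 genes. They were Dusp7, a phosphatase (0.019), Atp1b3, a subunit of the sodium pump (0.022), Tbk1, a kinase (0.024), Cdh10, a cadherin (0.032), and Pepd, a peptidase (0.033). Dusp7 was at 14.1, 13.3, 18.0 and 23.8 TPM in libraries 1 to 4, with library 4 the highest and library 2 the lowest as for Egfr. The genes compared had a mean of at least 10 TPM. Their SD of log2(TPM + 1) was at least that of Egfr divided by 2. With only 4 libraries likeness to Egfr says little, and 111 of the 6905 genes were within 0.1. Among the members that entered this ranking, Errfi1 stood at rank 2871, Hbegf at 4508 and Tgfa at 5181.

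Around the receptors, 105 further genes of the pathway were counted in 6 lists. All matched, 104 had a count, and 91 of these (87.5%) were above 1 TPM, 5 below and 8 in neither direction. The background is 62.8% of all genes above; these lists were made of widely used signalling genes and were chosen with earlier results of these data known.

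Of the 6 other ERBB ligands, only the neuregulin Nrg1, which binds ERBB3 and ERBB4, was above 1 TPM, at 14.5, 14.5, 20.9 and 14.0 TPM in libraries 1 to 4. Nrg2 (1.50 ± 0.82 TPM) and Nrg4 (1.10 ± 0.64 TPM; SD, n = 4 each) passed in neither direction. Nrg3 (0.49 ± 0.35 TPM) and Ereg, epiregulin (0.028 ± 0.014 TPM; SD, n = 4 each), were below, with adjusted p = 0.032 and 4.4e-06 in limma. Epgn had no count, which allows at most 0.24 TPM in the library with the highest limit. With edgeR, 1 pathway gene in all was below 1 TPM.

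Of 11 sheddases and rhomboids, proteases that release the ligands and their regulators, 7 were above 1 TPM, near the share of all genes. Mmp14, a membrane-bound collagenase, led at 113 ± 19.8 TPM, followed by Adam10, which releases Egf and Btc (27.2 ± 6.84 TPM), and Adam17, which releases Tgfa, Hbegf and Areg (22.0 ± 0.92 TPM; SD, n = 4 each). Adam8 (0.34 ± 0.46 TPM) and Rhbdf2, an inactive rhomboid that guides ADAM17 (0.14 ± 0.17 TPM; SD, n = 4 each), were below. Rhbdl2 and Adam19, named after their values were seen, passed in neither direction.

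Inside the cell, 18 of 19 adaptors and RAS-ERK transducers were above 1 TPM, led by the GTPase Hras (146 ± 26.6 TPM) and the kinases Map2k2 (143 ± 12.6 TPM) and Araf (116 ± 13.9 TPM; SD, n = 4 each); the adaptor Gab2 was at 7.56 ± 1.29 TPM and Shc2, at 2.23 ± 1.13 TPM, passed in neither direction. Of 20 genes of the PI3K-AKT, STAT and PLCG branches, 19 were above, led by Akt1 (136 ± 32.9 TPM), Akt2 (122 ± 21.8 TPM) and Pik3r2 (104 ± 9.86 TPM; SD, n = 4 each). Stat5a was at 3.23 ± 1.27 TPM (SD, n = 4). Plcg2, a phospholipase of immune cells, passed in neither direction and was at 0.093, 2.46, 5.32 and 3.33 TPM, lowest in library 1 as the microglia markers were. The part of microglia in it was not tested.

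Of 31 genes that down-regulate or feed back on the receptors, 29 were above 1 TPM. The ubiquitin ligase Stub1 led at 159 ± 7.38 TPM, with the cytokine feedback gene Socs3 at 88.5 ± 35.3 TPM and the endocytic adaptor Eps15 at 81.0 ± 11.3 TPM (SD, n = 4 each). Cblc, an epithelial relative of the ligase Cbl, was below at 0.12 ± 0.14 TPM (SD, n = 4), and the phosphatase Ptprj, at 1.35 ± 0.57 TPM (SD, n = 4), passed in neither direction.

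Transcripts known to respond to ERK were high, and 17 of 18 passed as above 1 TPM. The transcription factor genes Fos, Egr1 and Jun had means of 2096 ± 831, 1192 ± 353 and 801 ± 297 TPM (SD, n = 4 each). Fos was at 1744, 2099.5, 3242 and 1298 TPM in libraries 1 to 4. The lowest of the list were Fosl1 at 3.29 ± 1.27 TPM (SD, n = 4) and Fosl2, which passed in neither direction at 0.25, 2.95, 1.18 and 0.43 TPM. Many of these genes are immediate early genes, which are known to answer quickly to a wide range of stimuli, tissue dissociation among them. Their summed TPM was 4711, 5791, 8381 and 3575 in libraries 1 to 4, highest in library 3 like Hbegf and Errfi1, but lowest in library 4, where Hbegf and Errfi1 held their second highest value.

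**Figure D4:**
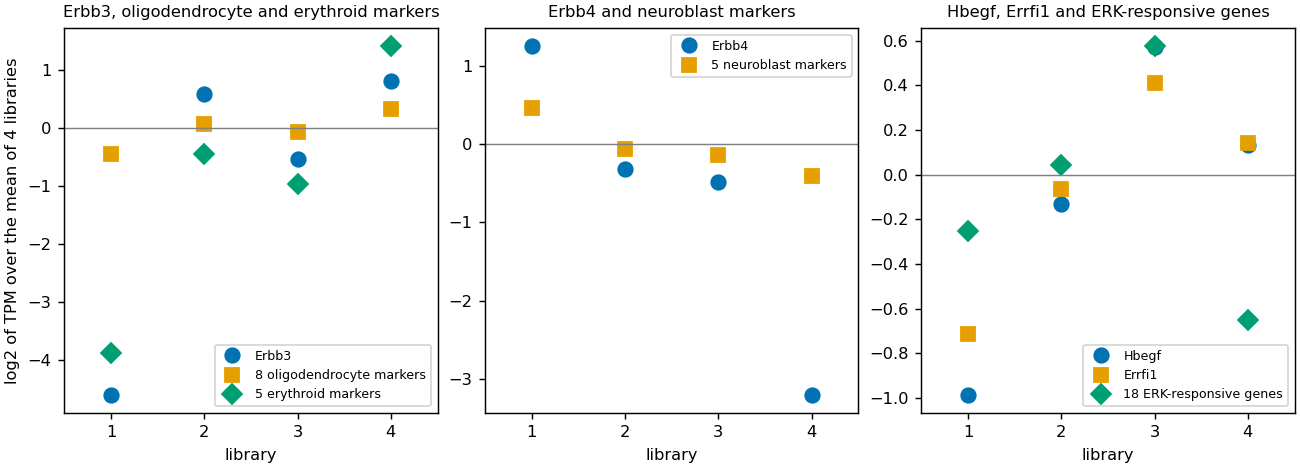
Log2 of TPM over the mean of the 4 libraries, by library, for Erbb3 with summed oligodendrocyte and erythroid markers (left), Erbb4 with summed neuroblast markers (middle), and Hbegf and Errfi1 with summed ERK-responsive genes (right). Library 1 is lowest in the left panel and highest in the middle one; in the right panel library 3 is highest for all and library 4 is lowest for the ERK-responsive genes alone.

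**Figure D5:**
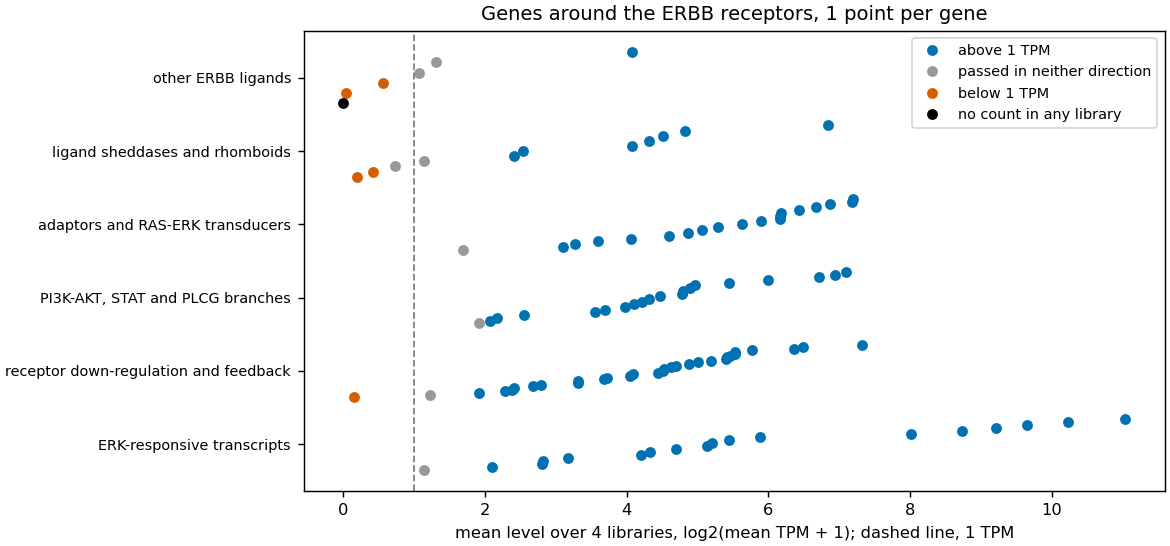
Mean level over 4 libraries as log2(mean TPM + 1) for each of the 105 pathway genes, 1 point per gene and 1 row per list, coloured by the call against 1 TPM (dashed line). The 5 genes below 1 TPM are Ereg, Nrg3, Adam8, Rhbdf2 and Cblc.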

How the data were processed

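RNA of sorted cells was extracted with PicoPure, cDNA was made with SMART-Seq v4 and libraries with MicroPlex v2, and paired-end reads were taken on a HiSeq, per the labels' protocols. Per the submitters' processing notes, kallisto, sleuth and mm10 were used, with tool versions, transcript release and use of strand not given in the sources used here. In the deposited files, estimated counts divide shared reads between transcripts by estimate. The deposited TPM is that count over effective length, scaled per library; recomputed from the deposited columns it differed by at most 0.13 TPM. The cDNA is amplified and no molecular identifiers are named, so limits cover counting error only.

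Transcripts were matched by Ensembl identifier to GENCODE M21 (GRCm38): 98294 of 99567, and the 1273 unmatched ones held 0.53 to 0.62% of estimated counts and 2.59 to 4.56% of TPM per library. TPM was summed per gene. Depth was 16978938 to 23727664 estimated counts per library. Genes with a count in any library (19914) were tested with limma 3.58.1 in R 4.3.3 (mean-variance trend, log2(TPM + 1) against its value at 1 TPM, two-sided, adjusted p under 0.05). Folds understate the change of low genes on this scale. The edgeR alternative (4.0.16) used counts rounded to whole numbers with length offsets and an F statistic formed by hand, as an intercept cannot be tested directly there; DESeq2 1.42.0 gave size factors. Both level tests were also run on simulated data with the same dispersion for every gene. That run does not cover genes that spread as widely as Erbb3 and Erbb4.

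Members and gene lists were chosen with earlier results of these data known. Named by rule were the 10 members, Egfr transcripts with a count and other transcripts of at least 10% mean share. So were the 3 highest and 2 lowest genes of each pathway list with those below 1 TPM. The rule also named the highest marker of a cell type and the 5 genes most like Egfr. These 5 had a mean of at least 10 TPM and an SD at least that of Egfr divided by 2. Private sequence was counted in runs of 31 bases on either strand of the GENCODE transcripts.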

Additional observations from a re-analysis of the deposited data

Results flagged for a closer look

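In 39 sets of 4 library values (levels and transcript shares of the members), 4 had a highest value set apart from the other 3 beyond Dixon's 95% limit. Chance passes that limit in about 1 of 20 sets of independent, normally spread values. Sets with zeros and shares within a gene are not such values, so the rate does not hold for them. Summed Erbb2 was 11.6 TPM in library 2, against 7.92 to 8.22 TPM in the others. Areg was 1.30 TPM in library 3 and had no count in the others. Erbb4-201 held 100% of Erbb4 TPM in library 4, from 29 estimated counts, and close to none in the others. Btc-202, a form annotated for nonsense-mediated decay, held 39.7% of Btc TPM in library 3, against at most 4.33% in the others, from 1.38 estimated counts.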

How the results depend on the processing

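No paired analysis was possible because the labels give 1 group. Of the members, 6 above 1 TPM stayed within 1.5 times under every alternative run. The 2 members below became 1 with a mean of at least 5 estimated counts and with TPM rescaled over nuclear protein-coding genes. The number was also 1 without any single library (1 to 1). Areg, counted in library 3 alone, was not tested under the count minimum or without library 3. The number below was 4 against a level of 5 TPM, and 0 with edgeR, where 0 also had an unadjusted p under 0.05. For all genes, 4628 below became 949 with at least 5 counts, 7528 against 5 TPM, 1902 with edgeR and 2773 with protein-coding transcripts only. The 5 pathway genes below became 1 with edgeR and 3 to 4 when a library was left out. Neighbouring pairs apart by more than their spread numbered 4 with CPM and 2 to 5 when a library was left out, 5 without library 1. The full-length share of Egfr was 67.0% of estimated counts, 37.7% of coding Egfr TPM and 53.9% with its length cut at the stop codon, the last chosen after seeing the data. Leading shares by estimated counts were 31.1% for Egfr-202, 6.80% for Egf-203 and 85.9% for Errfi1-201. Against 5 TPM Erbb4 turned to −1.46 and Egf to −0.72 on the log2(TPM + 1) scale, and Egf to −0.18 with its most abundant transcript only. Egf was also lost with transcripts of at least 1000 bases (0.37, chosen after seeing the data). Areg was lost with rescaling (−0.65) and edgeR (−1.65), and Btc with edgeR (−1.65). With CPM, tested against 1 CPM and not 1 TPM, Erbb4 passed as above (1.52). Of 148 single-level values under alternatives, 131 kept the call of the main fit (above, below or neither). Fewer genes are tested under the count minimum; other causes were not tested. Levels under about 10 counts, as for Erbb3 in library 1 or single forms of Egf, Btc and Erbb4, are limited by depth.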
